A study of Mus musculus with 3 samples.

Results

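Heat shock proteins and their co-chaperones were examined as a set of 42 mouse genes, taken by symbol from a list and found on the arrays through the RefSeq accession of each probe. A probe was matched for 40 of the 42 genes, among 20660 genes named on the arrays, and 58 probes stood for these 40 genes. The accessions matched no probe of Hspa1b or Dnajb5. Of the 40, 38 had a probe well above background in at least 3 of 6 channel readings and are called measured here. Hspb8 and Serpinh1 were not well above background in any reading. The list was proposed with results of the same comparison known, so the members' ratios between treated and untreated cells are given as a description.

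The cells were bone marrow-derived macrophages of wild-type C57BL/6J mice, grown with supernatant of the fibroblast line L929, which supplies the growth factor CSF-1. They were kept in DMEM with 0.1% serum, and one group then received adiponectin, a hormone of fat cells, at 12 µg/ml for 18 h while the other was left untreated. One passage of the labels writes the dose in mg/ml, and µg/ml is taken here from the treatment text. Each of 3 Agilent arrays held RNA of 1 treated and 1 untreated culture in different dyes, and the labels call the arrays biological replicates. The treated culture was labelled with Cy3 on replicates 1 and 3, and with Cy5 on replicate 2.

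Heat shock proteins are molecular chaperones that bind unfolded stretches of other proteins and help them fold, refold or pass to degradation. HSP70 works in a cycle driven by ATP, in which J-domain proteins deliver the client and start hydrolysis, and nucleotide exchange factors such as the HSP110 and BAG proteins release it. HSP90 takes over later folding steps of kinases and receptors, with co-chaperones that load clients and time its own cycle. The genes of many of these proteins are switched on by the heat shock factor HSF1, which binds inverted repeats of the unit GAA in their promoters. In macrophages, inducible HSP70 is known as a product of heat and of several inflammatory stimuli.

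All macrophage markers with a probe (7 of 8 listed) were well above background in all 6 readings. Their log2 ratios of treated over untreated ran from -2.05 (Fcgr1 and Mertk) to 0.97 (Cd14). For each marker in this paragraph the probe with the most readings above background was taken, which need not be the brightest. Among markers of other cells, those of erythroid cells and of mast cells or basophils were not above background in any reading (0 of 3 each). Neutrophil granule genes were above background in all readings (4 of 4 with a probe, log2 ratios from -2.08 for Ltf to 1.27 for Camp), as were Cd3e (0.96) and Lck (0.89) of 5 T cell markers, Cd79b (-1.69) of 4 B cell markers, and Col1a2 (0.35) and Dcn (0.79) of 5 fibroblast markers. So were Zbtb46 of 3 dendritic cell markers (1.51), Pf4 of 3 megakaryocyte markers (0.43) and Pecam1 of 3 endothelial markers (0.18). Cd3d, Cd3g, Cd8a, Ms4a1, Pdgfra and Lum were not above background in any reading. The part of such cells in the members' values was not tested. RNA of whole cultures was measured, so fewer cells of a type and less RNA per cell cannot be told apart. Treated channels had 43.9% to 47.5% of probes well above background, against 53.4% to 54.3% in untreated channels.

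Hspa1a, Hspb1, Hsph1, Hsp90aa1 and Dnajb4 were between 4.57-fold and 34.7-fold higher in treated cells, and Bag5 was 2.51-fold lower. The call rule was an adjusted p below 0.05 in limma, a linear model fitted over all 13182 tested genes. By that rule 22 of the 38 measured members rose and 9 fell, and 7 were not called. Over all tested genes 24.5% were called higher and 46.1% lower, or 70.6% in either direction. At 2-fold or more, 11 members rose and 1 fell, where 6.80% and 12.6% of all tested genes did so. Since the list was proposed from this comparison, these counts describe the members and support nothing further. The 31 called members were also the ones whose treated and untreated levels did not overlap over the 3 arrays, a state shared by 75.6% of all tested genes. The same 31 had 1 sign on all 3 arrays, as did 82.1% of all tested genes.

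Log2 ratios of treated over untreated are relative to a zero that the normalization sets. With loess, the normalization used throughout, the median ratio was 0.46 over the measured members and -0.17 over all tested genes. The members' median was 0.53, 0.51 and 0.44 on replicates 1, 2 and 3. Their quartiles lay at -0.16 and 1.1, and those of all tested genes at -0.64 and 0.22. In place of loess, zero was also set at each array's median over all non-control spots, dim ones included. With this median centring the median of all tested genes moved by -0.86, to -1.03, and the members' median was -0.58. Limma then called 0 genes in either direction (5315 of all genes and 12 members at an unadjusted p under 0.05). The median of all genes on replicates 1, 2 and 3 was then -1.48, -0.06 and -1.67, so that the 2 arrays with treated RNA in Cy3 stood apart from the other one. Set against the median of all genes, the members' median was higher by 0.63 with loess and by 0.45 with median centring, and 28 of 38 members lay above it under each. The directions below are those with loess, and values with median centring are given beside the members that it turns. With median centring all of these members lay above the median of all genes, by 0.13 (Hspa13) to 0.97 (Stip1).

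**Figure D1:**
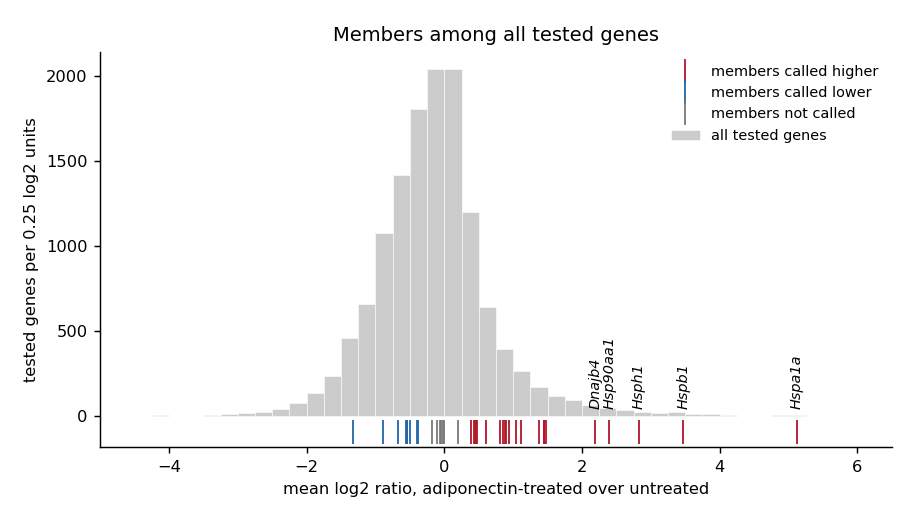
Log2 ratio of treated over untreated cells (mean of 3 arrays, horizontal axis) for all 13182 tested genes (grey, genes per bin on the vertical axis) and for the 38 measured members (ticks below, coloured by call). The 22 members called higher reach from 0.38 to 5.12 and the 9 called lower from -1.33 to -0.38, with zero as set by loess.

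**Figure D2:**
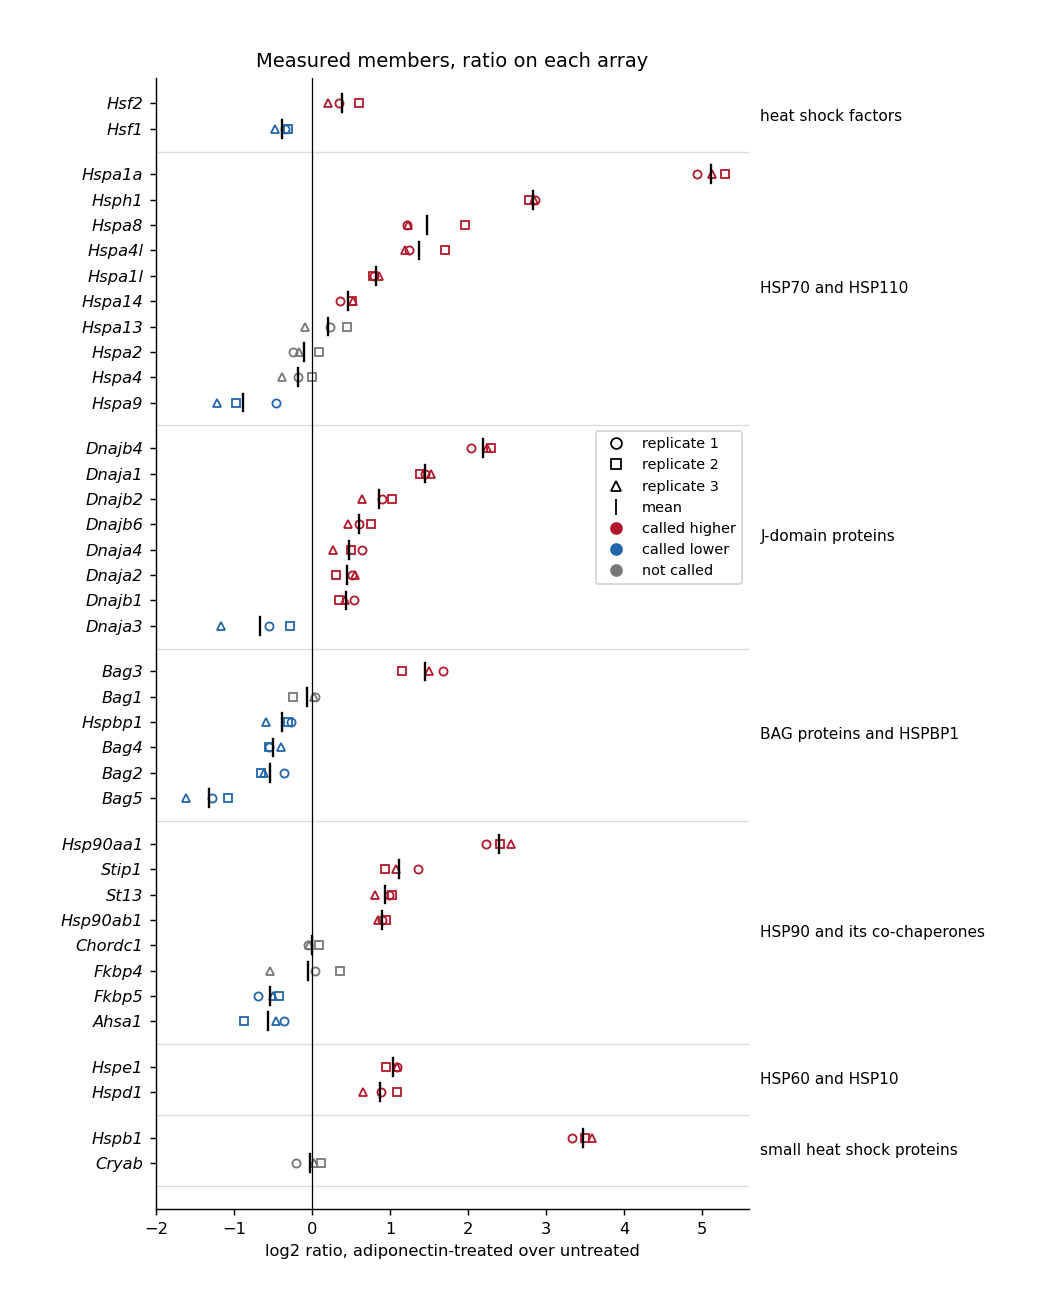
Log2 ratio of treated over untreated cells for each measured member on each array (symbols, by replicate) with the mean of the arrays (bar), grouped by role and coloured by call. The symbols of all 31 called members lie on 1 side of zero with loess, while all 7 members not called have arrays on both sides.

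Promoter sequences are shown for members that rose and whose window holds the core of the HSF1 binding site, because this is the element that heat shock genes are known for. RefSeq promoters of build GRCm38.p6 were in the table for 33 of the 42 members, and the 250 bases before each start were searched. The 2-unit core was written GAANNTTC or TTCNNGAA, each of which reads the same on both strands. The 3-unit form was GAANNTTCNNGAA or TTCNNGAANNTTC, which are each other on the opposite strand and which contain the core. A gene was counted when any of its windows matched. The core was present in 11 of 33 members (33.3%) and in 14.5% of the 27025 genes of the table, or 12.4% of the tested genes among them. It was present in 9 of the 18 members called higher (50%), 0 of the 6 called lower and 1 of the 5 not called, Fkbp4. The list was proposed from this comparison, and genes differ in their number of windows. This split is therefore a description and was not tested. The 3-unit form was present in 3 members, Dnajb6, Hspd1 and Hspe1 (9.09%), against 0.514% of all genes. Hspd1 and Hspe1 share 1 run of bases, which is counted for both. A match is a stretch of letters and not a measured binding site, and a window with no match lacks only these letters. Capitals below mark the matched stretches, and each sequence runs 5′ to 3′ and ends at the base before the start. Hspa1a (chr17:34972157-34972406, minus strand) has its core 104 to 97 bases before the start. Hspb1 (chr5:135887669-135887918, plus strand) has 2, the nearer one 97 to 90 bases before the start. Hsph1 (chr5:149636316-149636565, minus strand) has it at 54 to 47, Dnaja1 (chr4:40722218-40722467, plus strand) at 124 to 117, and Dnajb6 (chr5:29735648-29735897, plus strand) has a 13-base run at 46 to 34. The same stretch lies 33 to 26 bases before another start of Hsph1 and 127 to 115 before another of Dnajb6. Windows of other Dnaja1 starts (chr4:40722672-40722921 and chr4:40722680-40722929) hold no core. Hspe1 (chr1:55087898-55088147, plus strand) has an unbroken run of 18 bases at 89 to 72.
Hspa1a: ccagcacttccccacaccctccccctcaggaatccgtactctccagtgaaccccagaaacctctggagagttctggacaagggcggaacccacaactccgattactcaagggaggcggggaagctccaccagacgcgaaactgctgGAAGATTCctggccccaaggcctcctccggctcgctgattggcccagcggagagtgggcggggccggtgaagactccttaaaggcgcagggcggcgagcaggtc
Hspb1: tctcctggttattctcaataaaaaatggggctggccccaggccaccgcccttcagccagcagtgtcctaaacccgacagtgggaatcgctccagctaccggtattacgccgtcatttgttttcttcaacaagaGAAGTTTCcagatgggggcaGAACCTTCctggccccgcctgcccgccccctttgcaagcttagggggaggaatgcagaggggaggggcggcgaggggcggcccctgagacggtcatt
Hsph1: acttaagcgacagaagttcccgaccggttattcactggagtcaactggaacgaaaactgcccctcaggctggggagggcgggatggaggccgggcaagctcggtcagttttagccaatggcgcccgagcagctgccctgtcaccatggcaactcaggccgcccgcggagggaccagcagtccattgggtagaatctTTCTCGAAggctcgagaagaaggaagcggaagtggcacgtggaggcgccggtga
Dnaja1: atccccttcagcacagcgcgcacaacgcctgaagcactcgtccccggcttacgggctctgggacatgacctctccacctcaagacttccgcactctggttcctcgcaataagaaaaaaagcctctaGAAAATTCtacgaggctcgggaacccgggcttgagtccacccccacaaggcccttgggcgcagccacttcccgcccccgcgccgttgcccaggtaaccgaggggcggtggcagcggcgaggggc
Dnajb6: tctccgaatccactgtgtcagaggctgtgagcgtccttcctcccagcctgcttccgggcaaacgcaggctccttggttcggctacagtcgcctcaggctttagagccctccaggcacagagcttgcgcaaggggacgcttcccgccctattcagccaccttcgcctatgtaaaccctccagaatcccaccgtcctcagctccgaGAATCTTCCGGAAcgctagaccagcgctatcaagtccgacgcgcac
Hspe1: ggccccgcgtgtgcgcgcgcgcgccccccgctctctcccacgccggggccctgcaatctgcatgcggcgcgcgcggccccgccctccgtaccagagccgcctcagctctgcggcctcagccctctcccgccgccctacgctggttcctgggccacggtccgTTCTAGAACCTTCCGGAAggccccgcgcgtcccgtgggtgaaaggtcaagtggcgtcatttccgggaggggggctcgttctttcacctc

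A start of Hspd1, which encodes HSP60, lies on the opposite strand close to that of Hspe1, and its own window (chr1:55087933-55088182, minus strand) overlaps the one printed. The 18 capitals of Hspe1 were the reverse complement of those of Hspd1, 144 to 127 bases before this Hspd1 start, so that the 2 genes have this run in common. The window of another Hspd1 start (chr1:55088244-55088493, minus strand) held no core. Hspa1b, the second inducible HSP70 gene on chromosome 17, had a window equal to that of Hspa1a at 247 of 250 bases (98.8%), with the same core at the same distance. Dnajb4 had a core 14 to 7 bases before 1 of its 2 starts, and Dnaja4 had 2 cores before 1 of its starts. Among members that rose by 2-fold or more and had a window, 6 of 9 held a core (66.7%), and Hspa4l, Bag3 and Stip1 did not.

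The factors that control the heat shock genes differed little and in opposite directions. Hsf1, the main heat shock factor, had levels of 8.98, 8.89 and 8.72 in treated cells on replicates 1, 2 and 3, against 9.33, 9.20 and 9.20 in untreated cells (normalized log2 intensity of its probe, a scale on which probes cannot be compared with each other). Its log2 ratio was -0.38 ± 0.083 (limma's moderated SE, n = 3 arrays, as for all values below), and the groups did not overlap. The call of Hsf1 was lost with a normexp offset of 0 (adjusted p = 0.0586 in limma) and with the log ratio of the scanner software (adjusted p = 0.0824 in limma). Hsf2, a second factor of the family that is active in development and can act with HSF1, had a ratio of 0.38 ± 0.098, with 0.35, 0.60 and 0.20 on the arrays. It was at 0.69 by the log ratio of the scanner software and turned to -0.51 with median centring. The arrays measure transcripts, and HSF1 is known to be regulated mostly as a protein.

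Among the HSP70 and HSP110 genes, 6 of 10 measured rose, 1 fell and 3 were not called. Their median was 0.64, and -0.24 under median centring, beside -1.03 for all tested genes. Of all tested genes, 24.5% were called higher and 46.1% lower. Hspa1a, the stress-inducible cytosolic HSP70, had levels of 16.26, 15.84 and 16.55 in treated cells on replicates 1, 2 and 3, against 11.33, 10.55 and 11.42 in untreated cells. It was high on all 3 arrays, and the lowest treated level lay far above the highest untreated one. The log2 ratio was 5.12 ± 0.094, or 34.7-fold, and ranked as number 7 from the top among all tested genes. With median centring it was 4.00, from 3.13, 5.74 and 3.11 on the arrays, and the untreated channels were above background on all arrays. The coding sequences of Hspa1a and Hspa1b are nearly identical, so the 1 matched probe may report on both, and the signal cannot be divided between them. Hspa1l, an HSP70 gene active mainly in the testis and beside Hspa1a on chromosome 17, rose by 0.81 ± 0.080, with 0.80, 0.79 and 0.86 on the arrays. Its probe was dim, and the log ratio of the scanner software gave 1.47. With median centring the mean of Hspa1l was 0.21, with -0.06, 0.78 and -0.11 on the arrays.

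Hspa8, the constitutive HSP70 of the cytosol, also rose, from a bright probe in both groups. Its levels were 17.30, 17.12 and 17.29 in treated cells on replicates 1, 2 and 3, against 16.08, 15.16 and 16.06 in untreated cells. The treated levels lay close together, and the untreated level of replicate 2 was the low one. The log2 ratio was 1.47 ± 0.14, or 2.77-fold, with 1.22, 1.96 and 1.23 on the arrays, and the other probes of the gene gave 1.47 and 1.52. With median centring Hspa8 was -0.67, 2.95 and -0.84 on the arrays. Hspa14, a ribosome-associated HSP70 relative, had levels of 12.67, 12.68 and 12.68 in treated cells, against 12.31, 12.17 and 12.16 in untreated cells. That is a small but even difference of 0.47 ± 0.083, which turned to -0.67 with median centring.

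Both HSP110 members that act as exchange factors under stress rose. Hsph1, also known as HSP105, had levels of 13.41, 13.18 and 13.37 in treated cells on replicates 1, 2 and 3, against 10.55, 10.39 and 10.53 in untreated cells. The arrays were nearly equal to each other within each group, with a standard deviation of the ratios of 0.036. Its log2 ratio was 2.83 ± 0.080, or 7.10-fold, with 3.21 for its other probe, and stayed above 0 on every array with median centring (1.12, 3.00 and 0.87). Hspa4l, a relative of Hspa4 first known from testis, had levels of 11.08, 11.11 and 10.86 in treated cells, against 9.84, 9.41 and 9.67 in untreated cells, a ratio of 1.38 ± 0.11, or 2.60-fold. With median centring its mean was 0.20 and its arrays lay on both sides of zero (-0.43, 1.71 and -0.68).

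Hspa4 itself, the constitutive cytosolic HSP110, was not called, at -0.19 ± 0.096. Its brightest probe had -0.18, 0.00 and -0.38 on the arrays, and dimmer probes gave -1.66 and -0.39. The mean over these probes was -0.74 and was called (adjusted p = 6.5e-05 in limma), and the brightest probe alone was called without replicate 2 (-0.28, adjusted p = 0.0302). Hspa9, the mitochondrial HSP70 known as mortalin, fell by 0.88 ± 0.14 on the log2 scale. Its levels were 12.17, 11.89 and 11.55 in treated cells on replicates 1, 2 and 3, against 12.63, 12.86 and 12.77 in untreated cells, and the difference was smallest on replicate 1. Hspa13, a microsomal HSP70 relative, was at 0.20 ± 0.11 with arrays of both signs, and at -0.89 with median centring. It was called under 6 alternatives, among them without replicate 3 (0.34, adjusted p = 0.0299 in limma). Hspa2, an HSP70 of male germ cells, was at -0.10 ± 0.094 and was not called.

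**Figure D3:**
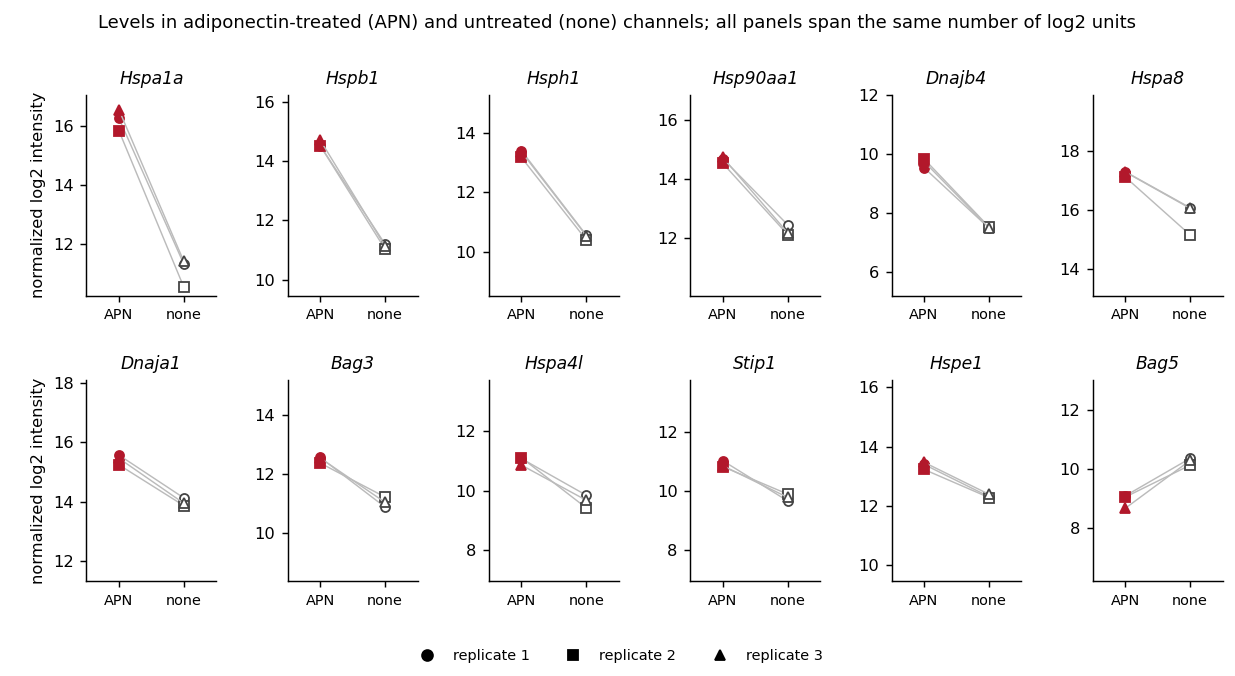
Normalized log2 intensity (vertical axis) of the 12 members called at 2-fold or more in treated (APN, filled) and untreated (none, open) channels of each array, with lines joining the channels of 1 array and all panels spanning the same number of log2 units. Treated levels lie above untreated ones without overlap in 11 panels, led by Hspa1a (means of 16.22 and 11.10), and below them for Bag5 (means of 8.94 and 10.26).

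J-domain proteins, which bring clients to HSP70, rose in 7 of 8 measured cases, and 1 fell. Their median was 0.54, and -0.38 under median centring, beside -1.03 for all tested genes. Of all tested genes, 24.5% were called higher and 46.1% lower. Dnajb4, a class B J-domain protein of the cytosol, had levels of 9.53, 9.83 and 9.74 in treated cells on replicates 1, 2 and 3, against 7.49, 7.53 and 7.50 in untreated cells. The untreated levels were almost the same on all arrays, and no treated level came near them. Its log2 ratio was 2.19 ± 0.088, or 4.57-fold, and it lay at 2.84 by the log ratio of the scanner software. Dnaja1, the main class A partner of cytosolic HSP70, had levels of 15.57, 15.24 and 15.46 in treated cells, against 14.12, 13.86 and 13.94 in untreated cells. This gave 1.45 ± 0.082, or 2.74-fold, while a dim probe of the gene was at 0.17 and the mean over both probes at 0.81. With median centring Dnaja1 was -0.39, 2.08 and -0.51 on the arrays.

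With loess, smaller rises were measured for Dnajb2, Dnajb6, Dnaja4, Dnaja2 and Dnajb1. Dnajb2, which passes HSP70 clients to degradation, was at 0.85 ± 0.096 (0.90, 1.02 and 0.64 on the arrays), with 0.56 for its other probe. Dnajb1, known as HSP40 and a classic heat-inducible partner of HSP70, was at only 0.44 ± 0.084 (0.54, 0.35 and 0.42). That is 1.36-fold, beside 34.7-fold for the Hspa1a probe. Dnaja4, another class A J-domain protein, had 0.47 ± 0.095 (0.64, 0.50 and 0.27), from a dim probe that read 1.59 by the log ratio of the scanner software. Dnajb1, Dnajb2, Dnajb6 and Dnaja2 turned to -0.71, -0.23, -0.52 and -0.71 with median centring, while Dnaja4 stayed at 0.25.

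Among the J-domain genes, probes of 1 gene also disagreed in size for Dnajb6 and in sign for Dnaja2. Dnajb6, a suppressor of protein aggregation, had 2 probes of 1 RefSeq transcript at 0.60 and 0.67 and 2 probes of another transcript at 1.42 and 1.66. The brightest probe, used for the gene, gave 0.60 ± 0.090, and the mean over all 4 was 1.09. All 4 lay above 0 on every array, and the probes of the second transcript were the higher ones on each. Dnaja2, a class A J-domain protein that is mostly constitutive, was at 0.45 ± 0.087 by its brighter probe and at -1.01 by its dimmer one. The dimmer probe was low on every array (-0.98, -0.95 and -1.10), and the mean over both was -0.28 (adjusted p = 0.00873 in limma). Dnaja3, the mitochondrial J-domain partner of Hspa9, fell by 0.67 ± 0.15 on the log2 scale, with -0.56, -0.28 and -1.16 on the arrays, and was at -0.42 without replicate 3.

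**Figure D4:**
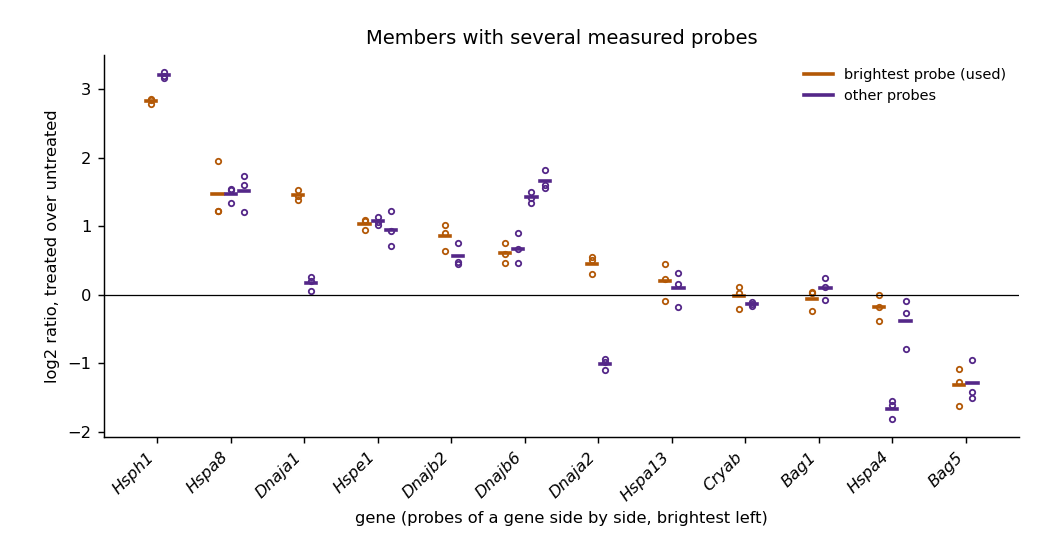
Log2 ratio of treated over untreated cells for each probe (points are arrays, bars their mean) of the 12 members with more than 1 measured probe, with the brightest probe on the left in orange. Probes lie on opposite sides of zero for Dnaja2 (0.45 and -1.01) and, close to zero, for Bag1 (-0.06 and 0.09). The 4 probes of Dnajb6 run from 0.60 to 1.66, those of Hspa4 from -1.66 to -0.19 and those of Dnaja1 from 0.17 to 1.45.

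The BAG proteins and Hspbp1, which regulate nucleotide exchange on HSP70, mostly went down with loess. Of 6 measured, 4 fell, 1 rose and 1 was not called, with a median of -0.44. Of all tested genes 46.1% were called lower. Under median centring the group's median was -1.06, beside -1.03 for all tested genes, and 3 of the 6 lay above the latter. Bag3, which links HSP70 to small heat shock proteins and to autophagy and is itself a heat shock gene, was the one that rose. Its levels were 12.57, 12.38 and 12.55 in treated cells on replicates 1, 2 and 3, against 10.89, 11.23 and 11.05 in untreated cells. The groups were more than 1 log2 unit apart on each array, and the ratio was 1.44 ± 0.11, or 2.72-fold. With median centring Bag3 was -0.05, 1.36 and -0.46 on the arrays.

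Bag5, a member with several BAG domains that also binds the ubiquitin ligases of protein quality control, moved the other way. It had levels of 9.09, 9.05 and 8.67 in treated cells on replicates 1, 2 and 3, against 10.36, 10.13 and 10.29 in untreated cells. Its log2 ratio was -1.33 ± 0.11, or 2.51-fold lower, and its other probe gave -1.29. Both probes were low on all arrays, and no alternative turned the sign. Median centring moved the median of all genes by -0.86, so it was unlikely to turn a fall. Set against that median, Bag5 was at -1.44 with median centring. Bag2, an inhibitor of the ligase CHIP, fell by 0.54 ± 0.092 on the log2 scale from a dim probe, above background in 2 of 3 treated and 3 of 3 untreated readings, with -1.36 by the log ratio of the scanner software. Bag4, a silencer of death receptor signalling, fell by 0.50 ± 0.083, with -1.07 by that log ratio. Set against the median of all genes, Bag2 and Bag4 were at 0.11 and 0.03 with median centring. Hspbp1, an exchange factor outside the BAG family, had -0.39 ± 0.094, and its call was lost under 3 alternatives besides median centring (adjusted p = 0.0521 to 0.128 in limma). Bag1, the founding member, was at -0.06 ± 0.090 and was not called, with 0.09 for its other probe.

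HSP90 and its co-chaperones were split, with 4 of 8 higher, 2 lower and 2 not called. Their median was 0.45, and -0.56 under median centring, beside -1.03 for all tested genes. Of all tested genes, 24.5% were called higher and 46.1% lower. Hsp90aa1, the inducible cytosolic HSP90, had levels of 14.70, 14.54 and 14.74 in treated cells on replicates 1, 2 and 3, against 12.46, 12.13 and 12.19 in untreated cells. The difference was more than 2 log2 units on each array, with a ratio of 2.40 ± 0.091, or 5.27-fold. With median centring it was 1.29 and above 0 on every array. Hsp90ab1, the constitutive form, had levels of 16.12, 15.90 and 16.11 in treated cells, against 15.23, 14.95 and 15.27 in untreated cells. Its ratio of 0.90 ± 0.081 turned to -0.12 with median centring.

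Stip1, which carries clients between the HSP70 and HSP90 machines, and St13, a partner of HSP70, both rose with loess. Stip1, the adaptor known as HOP, had levels of 11.03, 10.83 and 10.86 in treated cells on replicates 1, 2 and 3, against 9.67, 9.90 and 9.79 in untreated cells. The lowest treated level stood above the highest untreated one, and the ratio was 1.12 ± 0.10, or 2.17-fold. St13, the HSP70-interacting protein HIP, was at 0.94 ± 0.085, with 0.99, 1.02 and 0.81 on the arrays. Stip1 and St13 turned to -0.05 and -0.21 with median centring. Ahsa1, the activator of the HSP90 ATPase, fell by 0.56 ± 0.11 on the log2 scale, and most on replicate 2 (-0.35, -0.87 and -0.46). Fkbp5, an immunophilin that restrains the glucocorticoid receptor, fell by 0.54 ± 0.089. The related Fkbp4, which promotes receptor signalling, was at -0.05 ± 0.15, and its arrays spread widely (0.03, 0.36 and -0.54). Chordc1, an HSP90-binding protein, was at 0.00 ± 0.082 and was not called.

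HSP60 and HSP10, the mitochondrial chaperonin and its lid, rose together with loess and lay near or below zero with median centring. Under the latter the median of all tested genes was -1.03. Hspe1, which encodes HSP10, had levels of 13.40, 13.23 and 13.47 in treated cells on replicates 1, 2 and 3, against 12.31, 12.28 and 12.39 in untreated cells. Its ratio was 1.04 ± 0.082, or 2.05-fold, with other probes at 1.07 and 0.95, and -0.09 with median centring. Hspd1 was at 0.88 ± 0.10 (0.88, 1.09 and 0.66 on the arrays), and at -0.25 with median centring. These are the 2 genes that hold the shared 18-base run printed above in the Hspe1 promoter. Their mitochondrial partners Hspa9 and Dnaja3 fell.

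Of the small heat shock proteins, which hold unfolded proteins without ATP, Hspb1 rose. Hspb1, also called HSP25 in mice, had levels of 14.53, 14.53 and 14.72 in treated cells on replicates 1, 2 and 3, against 11.20, 11.03 and 11.13 in untreated cells. Each group was tight, and they stood more than 3 log2 units apart. The ratio was 3.47 ± 0.088, or 11.1-fold, and with median centring 2.35 (1.56, 3.88 and 1.60 on the arrays). Cryab, the alphaB-crystallin found in muscle and lens, was at -0.02 ± 0.093 and was not called. Hspb8, the partner of BAG3 in autophagy of misfolded proteins, and Serpinh1, the collagen chaperone HSP47, were the members not well above background in either group.

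Further genes of protein folding outside the set were read from the same fit in 6 lists. Of 77 listed genes 69 were measured, and 15 rose (21.7%) and 29 fell (42%), with a median of -0.05. These shares stand beside the 24.5% and 46.1% of all tested genes. With median centring the median of the lists was -1.17, where that of all genes was -1.03. It turned 13 of the 15 genes that rose with loess to below 0, all but Dnajc1 and Grpel2, and 0 of the 29 that fell. Subunits of the cytosolic chaperonin that folds actin and tubulin fell in 5 of 8 cases and rose in 1, led by Cct4 (-0.60 ± 0.14), Cct5 (-0.55 ± 0.14) and Cct2 (-0.49 ± 0.10). Prefoldin, which delivers clients to it, was mostly not called (4 of 6), with Vbp1 at 0.48 ± 0.090 (-0.70 with median centring) and Pfdn4 at -0.48 ± 0.083.

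Class C J-domain proteins, a mixed group, fell in 14 of 23 measured cases (60.9%) and rose in 3 (13%), with a median of -0.31. Of all tested genes, 46.1% were called lower and 24.5% higher, with a median of -0.17. The class A and B members above rose in 7 of 8 cases. The class A and B members belong to the list proposed from this comparison, and the difference between these classes was not tested. With median centring 3 of these 8 members lay above 0 and 7 above the median of all tested genes. Of class C only Dnajc1 then lay above 0. Dnajc9, a chaperone of histones, fell most (-2.15 ± 0.081, or 4.43-fold lower), followed by Dnajc11 of the mitochondrial membrane (-1.23 ± 0.087), while Dnajc1 of the endoplasmic reticulum rose by 1.98 ± 0.10, or 3.94-fold (0.83 with median centring). The other HSP90 co-chaperones were split (4 higher, 4 lower and 4 not called), with Tomm34 at -0.91 ± 0.082, Ttc4 at -0.44 ± 0.091 and Ptges3, the p23 protein, at 0.42 ± 0.091 (-0.73 with median centring). Among 13 organelle chaperones, 3 rose and 5 fell. Grpel2, a mitochondrial exchange factor, rose by 1.87 ± 0.084 (0.78 with median centring) but was at -0.07 by its dimmer probe, and Hscb and Hsp90b1, the HSP90 of the endoplasmic reticulum, were both at -0.62. Of 7 measured other heat shock factors and small heat shock proteins, 3 rose with loess, namely Hspb6 (0.56 ± 0.081), Hsbp1, an inhibitor of HSF1 (0.43 ± 0.081), and Hspb9 (0.29 ± 0.089). These 3 turned to -0.46, -0.70 and -0.24 with median centring.

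The dyes and the arrays were checked for each member. With a dye term in the fit, limma called a dye coefficient for 0 of 38 members, where 0.334% of all tested genes were called. Only replicate 2 had the other dye order, so a dye effect cannot be told apart from a difference of that replicate. That fit had 1 residual degree of freedom, so the absence of a call does not exclude a dye effect. At an unadjusted p under 0.05 the coefficient passed for 5 members (13.2%, beside 12.5% of all tested genes), Ahsa1, Bag3, Fkbp4, Hspa4l and Hspa8, the last with the largest one (0.37). Leaving out each array in turn kept Hspa1a between 5.03 and 5.21, Hspb1 between 3.41 and 3.55 and Hsph1 between 2.81 and 2.85. All 3 arrays were on 1 slide, so no slide could be compared with another. Correlations of the ratios between arrays over all genes were 0.943 to 0.968, as a description across genes that are not independent.

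**Figure D5:**
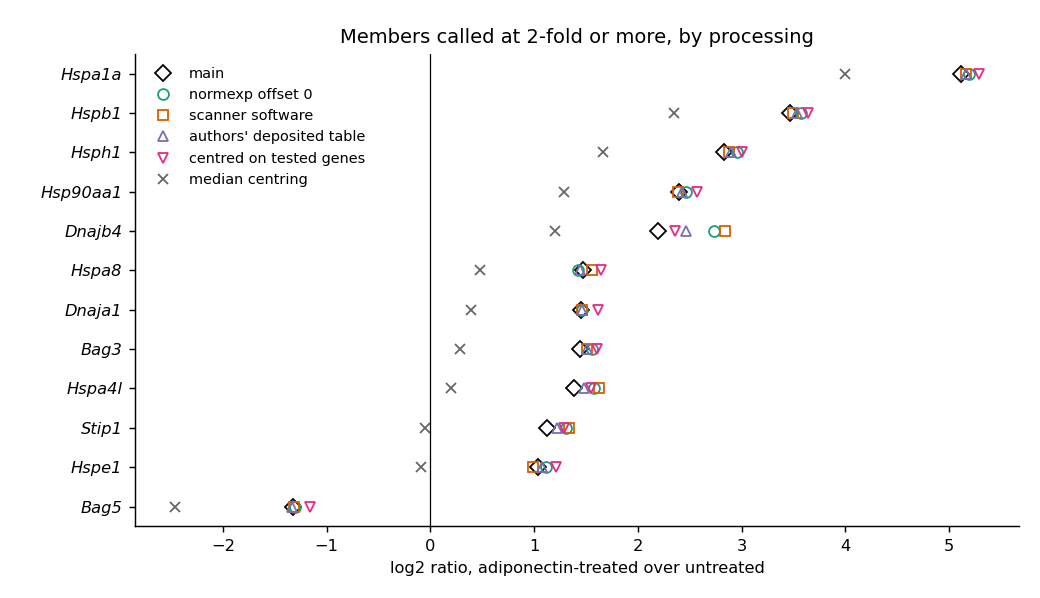
Log2 ratio of treated over untreated cells (horizontal axis) for the 12 members called at 2-fold or more with loess (diamonds) and under 5 other ways of processing the same arrays. Hspa1a, Hspb1, Hsph1, Hsp90aa1 and Dnajb4 stay above 1 in all of them, while Stip1 and Hspe1 lie just below zero with median centring (-0.05 and -0.09).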

How the data were processed

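Spots were quantified by the authors with Agilent Feature Extraction 10.7.3.1, per the file headers and the submitters' processing notes. The deposited intensity columns hold the median brightness of each spot and its local background in each dye, not normalized. The deposited log10 ratio is that of Cy5 over Cy3 after the scanner software's own background and dye correction, per the file headers. The authors also deposited a table of log2 values whose making is not stated. Its columns correlated at r = 0.994, 0.990 and 0.992 with the treated over untreated loess ratios made without background correction, with medians of -0.0024, -0.0097 and -0.0058, so its direction is settled and its background handling stays unknown. No expression count or depth exists for arrays, and their number (3) limits the precision.

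Background was corrected with normexp (offset 50) and ratios were normalized within each array by loess, with control spots at weight 0, in limma 3.58.1 under R 4.3.3. The dyes of the labels gave each ratio the direction of treated over untreated. Outlier spots (323, 303 and 299 on the 3 arrays) were removed, and 0 spots were saturated. Probes were named through RefSeq accessions (GRCm38.p6): of 55681 probes, 27235 had 1 symbol, for 20660 genes. A probe was kept when well above background in at least 3 of 6 readings, and the brightest probe stood for a gene, which left 13182 genes. The ratios were tested against 0 with lmFit and eBayes (2 residual and 6.21 prior degrees of freedom) and Benjamini-Hochberg adjustment over all of them. Levels are log2 intensities after loess and Aquantile. On simulated data of 13181 genes, 76% of 2-fold and 99% of 4-fold changes were recovered, with 1.69% false among the calls. The simulation drew independent noise around 0 with each gene's own spread and changed only a few genes. It held no dye or normalization error, so it gives no error rate for the calls made here. The replicates are biological per the labels, which do not say whether they came from separate mice.

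The members, lists and rules were chosen with earlier results of these data known. Every member could be named, those called at 2-fold or more with all levels. Of each other list, up to 3 called genes with the largest absolute ratio and 1 sign on all arrays were named. 14 alternatives were run, and slide as a block was not, since all arrays were on 1 slide.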

Additional observations from a re-analysis of the deposited data

How the results depend on the processing

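Under 14 alternatives to background correction, normalization, centring, filter, probe choice, dye, weights, data source and arrays, the members called higher numbered 21 to 23 and those called lower 7 to 11, except with median centring in place of loess, where limma called 0 members, 0 other chaperone genes and 0 of all genes in either direction (5315 of all genes and 12 members at an unadjusted p under 0.05). The members' median was 0.60 with a normexp offset of 0, 0.57 in the scanner software's log ratio, 0.51 in the authors' deposited table, 0.63 when centred on the tested genes and -0.58 with median centring, against 0.46. Of the called members, 11 turned with median centring, to -0.71 for Dnaja2 and Dnajb1, -0.23 for Dnajb2, -0.52 for Dnajb6, -0.51 for Hsf2, -0.12 for Hsp90ab1, -0.67 for Hspa14, -0.25 for Hspd1, -0.09 for Hspe1, -0.21 for St13 and -0.05 for Stip1, and the other 20 kept their sign without a call. Set against the median of all genes with median centring, the 11 that turned lay above it, by 0.31 (Dnajb1) to 0.97 (Stip1). That centring moved the median of all genes by -0.86, so a fall was unlikely to turn. Dnaja2 also turned as the mean over its probes (-0.28, called lower). The other chaperone genes called lower numbered 18 with an offset of 0 and 19 when centred on the tested genes, against 29. The share of calls that were higher was 49.0% when centred on the tested genes, whose median that moves by 0.17, against 34.7%. Apart from median centring, calls of members were lost for Hsf1 and Hspbp1 and gained for Hspa13 and Hspa4, and Bag2 left the test when all 6 readings had to be above background. The cause of these changes was not tested, and the slide alternative was not run. Each ratio already pairs the treated and untreated sample of 1 array. Signal over background limits the dimmest members, Bag2 among them, and the 2 not measured.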
